A study of Rattus norvegicus with 18 samples.

Results

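This comparison set T cell RNA taken 7 days after heart transplantation against T cell RNA taken 1 day after it. It comprised 6 of the 18 arrays of the series, 3 labelled as T cells of day 7 and 3 as T cells of day 1, and each day 7 array was paired with the day 1 array of the same treatment. Hearts of Wistar Furth (WF; RT1.Au) rats were transplanted heterotopically into the abdomen of ACI (RT1.Aa) rats, all adult inbred males. In the first pair the recipients had a transplant and no treatment. In the second they received cyclosporine, called CsA in the labels, by gavage at 10 mg/kg/day on days 0 to 2, a dose the labels call sub-therapeutic. In the third they received the same course plus the allochimeric peptide [a1h1/u]-RT1.Aa, 1 mg/kg through the portal vein during the transplant operation, and no sham injection into the portal vein was described for the other groups. The day 1 arrays of both treated pairs therefore fell within the cyclosporine course and their day 7 arrays after it. All 6 groups carry an allograft, so an untransplanted T cell sample was not part of the comparison. Every T cell sample is labelled with the strain Wistar Furth, the strain of the donor hearts. How the T cells were obtained, from which organ and from how many rats is not given in the sources used here, and the extraction text describes heart tissue only. With 1 array for each combination, the test treats the 3 treatments as repeats of the day effect, and its error is the spread of that effect between treatments, not between animals.

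T cells that recognise donor major histocompatibility complex (MHC) molecules become activated in lymphoid organs, divide, and acquire effector functions such as the release of granzymes and perforin and the display of Fas ligand. Cyclosporine inhibits calcineurin, the phosphatase that brings NFAT transcription factors into the nucleus after T cell receptor signalling. Allochimeric MHC molecules join donor-type epitopes to a recipient-type backbone and have been studied in rats as a means of lowering the response to a graft.

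The label was checked against marker genes. The T cell receptor subunit gene Cd3e had deposited signal intensities of 8328, 9624 and 9727 on the untreated, cyclosporine and cyclosporine plus peptide arrays of day 1, and 9566, 9739 and 9497 on those of day 7, and values below are given in this order throughout. Heart muscle genes summed to between 703 and 917 over 11 measured genes on the 9 T cell arrays. B cell genes were present on every array: the 13 measured genes of a B cell list summed to 50829, 28015 and 35112 on day 1 and 21055, 23417 and 20164 on day 7. The arrays thus carried signal of B cells beside that of T cells, and fewer cells of a type and less RNA per cell cannot be told apart in such bulk samples. One array stood apart from the others, the untreated array of day 1. Its log2 values correlated with those of the other 8 T cell arrays at a mean Pearson r of 0.972, against 0.976 to 0.985 for the other arrays. It had the lowest summed signal of 18 T cell genes (73238, 100290.0 and 101510.0 on day 1, 102560.0, 105170.0 and 105640.0 on day 7) and by far the highest summed signal of 13 neutrophil genes (42960.0, 1516 and 2980.5 on day 1, 5137, 2309 and 4274 on day 7). Results are therefore given with and without the untreated pair, and for the calls also without that single array. The overall signal was alike on the 6 arrays, with medians between 197 and 209.9 and 3' to 5' signal ratios of the actin control, a measure of RNA integrity, between 1.27 and 1.40.

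Between day 1 and day 7 the T cell arrays gained signal for genes of cell division and of cytotoxic effector function, and lost signal for a B cell gene and a small set of other genes. In a fit with limma to all 31042 probe sets, with treatment as a block, 100 probe sets passed an adjusted p of 0.05 (0.322% of those tested), 72 higher and 28 lower on day 7, with absolute log2 differences between 0.561 and 2.20. All 100 changed in the same direction in all 3 pairs, and in 96 of them the day 1 and day 7 arrays did not overlap. The test favours such probe sets, since its error is the spread between these same pairs, so this is no separate evidence. Counted by gene, with 1 probe set per gene, 56 of 14217 genes were called higher (0.394%) and 9 lower (0.0633%). Differences are of log2(signal + 16), a scale that understates changes of weak signals. A further 7 called probe sets that were higher and 13 that were lower had no single gene symbol. Below, "called" means past this threshold. The median log2 difference over all genes was 0.05. When each array was centred on its median, 208 probe sets passed, 128 higher and 80 lower.

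These calls were lost when any of the 3 pairs was left out. Without the untreated pair no probe set passed in limma (0% of those tested), while 4843 of 31042 had an unadjusted p below 0.05 against the 1552 that a uniform spread of p would give, and the lowest adjusted p was 0.0995. Median centring of the arrays, in that same fit of the treated pairs, called 22. No probe set passed without the cyclosporine arrays or without the cyclosporine plus peptide arrays either, nor with the day 3 arrays left out of the fit or with the variance not allowed to follow the signal (between 3678 and 5224 had an unadjusted p below 0.05 in those fits). Leaving out the untreated day 1 array alone left 19 calls, 16 higher and 3 lower, 13 of them among the 100. By gene, 11 calls were kept without that array: Gzma, Gzmb, Ccl4, Cd7, Cdkn3, Cks2, Asf1b, Ube2c, Tsc22d3 and Mcpt9 higher, and Esam lower. As a background for the counts below, 2829 of all 14217 genes had an unadjusted p below 0.05 in the limma fit of all 3 pairs. Of all genes 27.7% were higher in all 3 pairs and 12.3% lower in all 3. In both treated pairs 39.2% were higher and 22.3% lower. So few pairs often share a sign without any day effect, and these shares alone do not show a widely shared change. In the limma fit of all 3 pairs 5770 of 31042 probe sets had an unadjusted p below 0.05, against the 1552 of a uniform spread of p. In 12.9% of genes the 3 day 7 arrays lay above all 3 day 1 arrays, and in 6.11% below all of them.

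**Figure D1:**
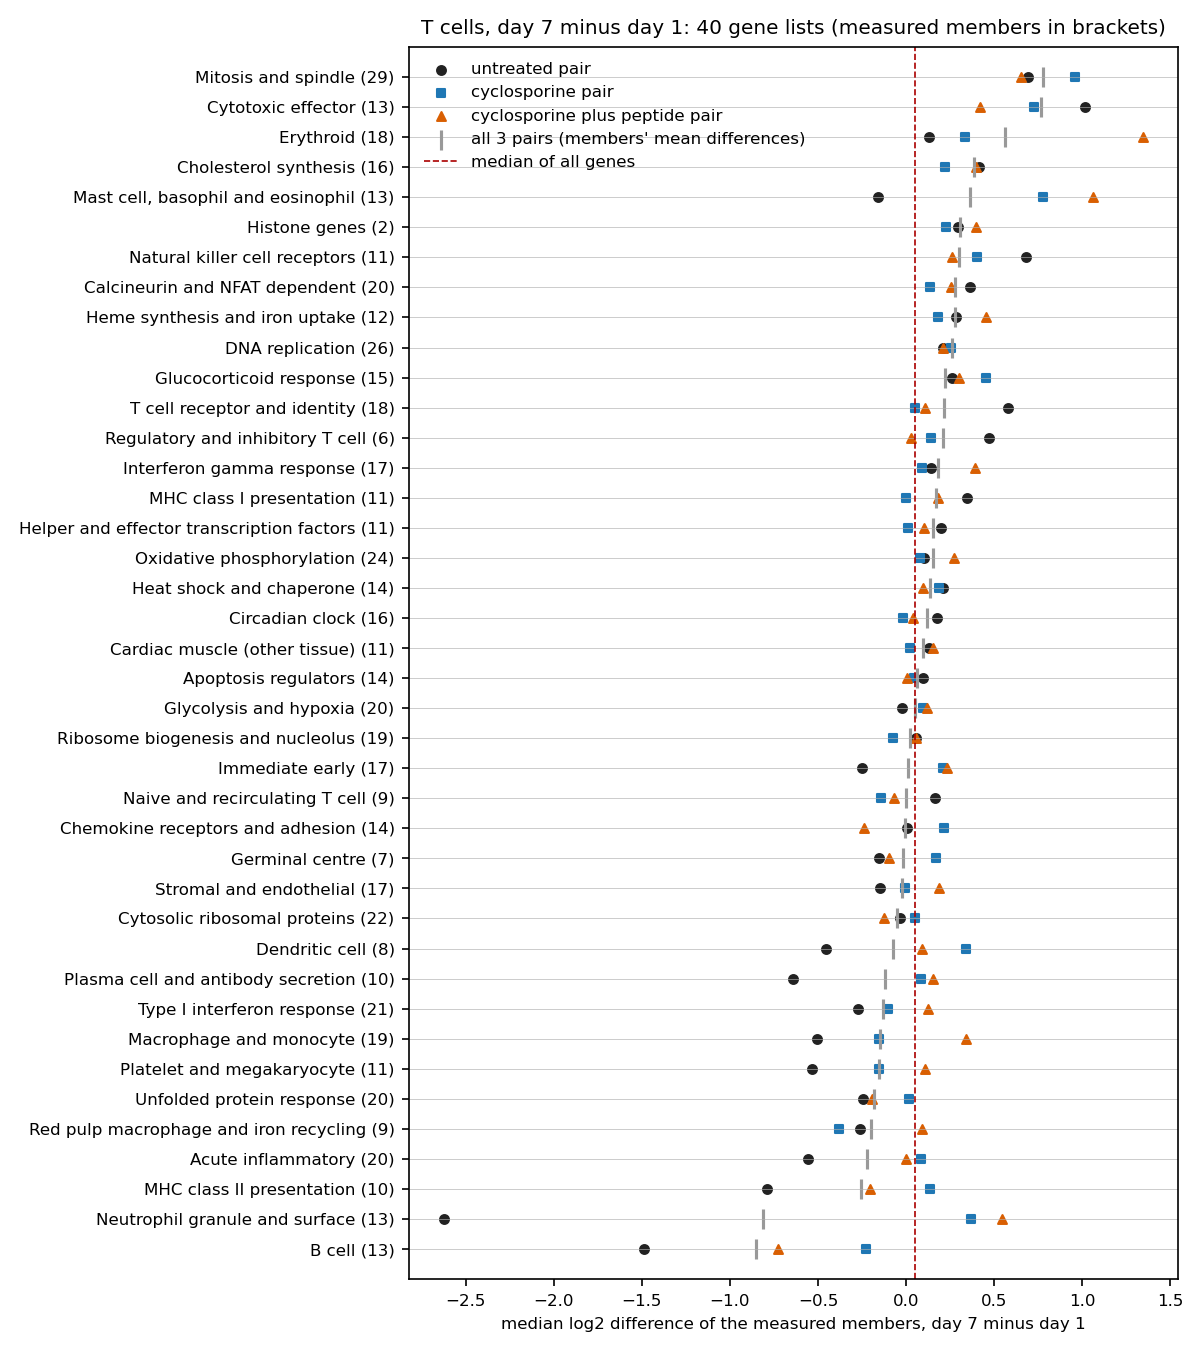
Median log2 difference, day 7 minus day 1, of the measured members of 40 gene lists (number measured in brackets), one symbol for each treatment pair and a grey bar for the members' mean differences; the dashed line is the median of all genes, 0.05. The mitosis list lies highest at 0.78 with its 3 pairs close together, and the B cell list lowest at -0.85; in the neutrophil list the untreated pair stands at -2.62 while both treated pairs are above 0.

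Genes of mitosis formed the largest group among the calls. Of 29 measured genes of a list of mitosis and spindle genes, 12 were called higher and none lower, 28 were higher in all 3 pairs, and in 26 the day 1 and day 7 arrays did not overlap. Without the untreated day 1 array 1 member was called and the median was 0.74. With all arrays the list's median log2 difference was 0.78, and it was 0.69, 0.96 and 0.65 in the untreated, cyclosporine and cyclosporine plus peptide pairs. Ccnb2, which encodes cyclin B2, a partner of the mitotic kinase Cdk1, had signals of 614, 388 and 668 on day 1 and 1352, 1065 and 1355 on day 7. All 3 day 7 arrays were above all 3 of day 1, and the cyclosporine array was the lowest on both days. Its log2 difference was 1.18 ± 0.13 (standard error), a 2.27-fold rise on the scale of signal plus 16 (adjusted p = 0.032). Plk1, a kinase of mitotic entry and spindle assembly, went from 309, 214 and 355 to 689, 550.0 and 635, a difference of 1.08 ± 0.13 (adjusted p = 0.032). Cdk1 itself went from 779, 450.0 and 668 to 1232, 938 and 1274, a difference of 0.87 ± 0.12 (adjusted p = 0.042). In both genes the cyclosporine array was again the lowest of day 1, and the groups did not overlap. The other called members were the cyclin Ccna2 (0.87), the checkpoint kinases Bub1 (0.85) and Ttk (0.79), the chromosomal passenger genes Birc5 (0.67) and Cdca8 (0.79), the spindle motor Kif23 (0.99), the ubiquitin conjugating enzyme of mitotic exit Ube2c (0.89), securin, Pttg1 (0.89), and Cdca3 (0.85), each a log2 difference. Members that did not pass included the proliferation marker Mki67 at 0.61 ± 0.13 (adjusted p = 0.085) and the topoisomerase Top2a at 0.63 ± 0.12 (adjusted p = 0.076).

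Genes of DNA replication had fewer calls. Of 26 measured members 1 was called higher, 18 were higher in all 3 pairs and none lower in all 3, and the median log2 difference was 0.26. Without the untreated day 1 array 0 were called and the median was 0.22. The member called with all arrays was Tyms, thymidylate synthase, which makes a precursor of thymidine nucleotides. Its signals of 182, 95.4 and 147 on day 1 became 341, 229.9 and 339 on day 7, without overlap (difference 1.04 ± 0.13, adjusted p = 0.032). The replicative helicase subunits Mcm2 to Mcm7 had differences between -0.089 and 0.36, and the sliding clamp Pcna one of 0.19 ± 0.062 (adjusted p = 0.16), none of them called. Called genes outside both lists, seen as such only after the fit, also belong to cell division: Cdkn3, a phosphatase of cyclin-dependent kinases, at 1.12 ± 0.11 (adjusted p = 0.025), Cks2, a small Cdk-binding protein, at 0.81, the kinesin Kifc1 at 0.64, the kinetochore genes Spc24 and Spc25 at 0.80 and 0.76, the centromere genes Cenpm and Cenpw at 1.01 and 0.84, Racgap1 of the cytokinesis machinery at 1.03, the histone chaperone Asf1b at 0.93, and Ube2t, a ubiquitin conjugating enzyme of DNA crosslink repair, at 1.44 ± 0.20 (adjusted p = 0.042). A difference was already there on day 3. The median of the mitosis list on day 3 minus day 1, which shares the day 1 arrays with the day 7 difference and was not tested, was 0.79, 1.01 and 0.42 in the 3 treatments.

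Because 12 mitosis list genes were called in the same direction, the stretches just before the start sites are shown for 2 of them, Ccnb2 and Cdk1, and for Cdkn3, a called gene outside the list, with those before the granzyme genes Gzma and Gzmb, members of the second group of genes that rose, for comparison. Each is the 200 bases ending at the last base before the start, 5′ to 3′ in the direction of the gene, from RefSeq on the assembly GRCr8. Capitals mark 2 motifs on either strand. One is TTTGAA (on the other strand TTCAAA), the core of the cell cycle homology region, an element known from promoters of mitotic genes. The other is CCAAT (on the other strand ATTGG), the box bound by the factor NF-Y. The stretches lie at chr8:79981659-79981858 (minus strand), chr20:19265093-19265292 (plus), chr15:22502186-22502385 (plus; the first of 2 starts listed), chr2:46485697-46485896 (minus) and chr15:34462470-34462669 (minus).
Ccnb2: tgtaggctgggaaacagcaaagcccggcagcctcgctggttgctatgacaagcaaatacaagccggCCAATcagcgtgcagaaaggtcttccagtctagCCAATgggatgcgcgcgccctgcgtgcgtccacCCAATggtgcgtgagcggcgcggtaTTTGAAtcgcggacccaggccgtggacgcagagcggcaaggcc
Cdk1: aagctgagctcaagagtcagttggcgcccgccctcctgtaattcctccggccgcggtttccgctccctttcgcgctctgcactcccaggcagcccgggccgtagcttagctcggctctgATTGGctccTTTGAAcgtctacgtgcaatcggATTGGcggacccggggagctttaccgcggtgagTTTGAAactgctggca
Cdkn3: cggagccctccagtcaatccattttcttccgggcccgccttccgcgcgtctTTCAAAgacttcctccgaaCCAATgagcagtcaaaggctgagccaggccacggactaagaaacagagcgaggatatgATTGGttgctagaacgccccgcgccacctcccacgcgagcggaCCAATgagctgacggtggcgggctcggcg
Gzma: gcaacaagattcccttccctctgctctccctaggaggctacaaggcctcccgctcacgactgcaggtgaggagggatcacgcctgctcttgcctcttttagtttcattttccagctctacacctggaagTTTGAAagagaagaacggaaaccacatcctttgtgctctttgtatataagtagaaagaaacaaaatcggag
Gzmb: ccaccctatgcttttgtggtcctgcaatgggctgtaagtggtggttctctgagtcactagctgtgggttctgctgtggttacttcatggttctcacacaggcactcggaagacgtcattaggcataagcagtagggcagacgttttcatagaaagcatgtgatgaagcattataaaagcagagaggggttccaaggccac
The Ccnb2 stretch held 1 TTTGAA and 3 CCAAT, the Cdk1 stretch 2 and 2, and the Cdkn3 stretch 1 and 3. The Gzma stretch held 1 TTTGAA and 0 CCAAT, and the Gzmb stretch 0 of both. In the 250 bases before the start, 11 of the 25 mitosis list genes with an entry held both motifs (44.0%), as did 6 of the 10 called ones with an entry, 1 of 10 cytotoxic list genes and 1 of 8 B cell list genes, against 6.81% of all 27457 genes with an entry. CCAAT, with or without the other motif, was held by 20 of the 25 and by 36.1% of all genes. For TTTGAA the numbers were 11 of the 25 and 17.2%. Where a gene had several listed starts, a motif counted if it lay before any of them. Both motifs of such a gene may therefore lie before different starts. These are matches of letters in a window, not measured binding.

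The second group of higher genes encodes the effector machinery of cytotoxic lymphocytes. Of 13 measured members of a cytotoxic effector list 3 were called higher and none lower, 10 were higher in all 3 pairs, in 10 the day 1 and day 7 arrays did not overlap, and the median log2 difference was 0.77 (1.02, 0.72 and 0.42 in the 3 pairs). Without the untreated day 1 array Gzma and Gzmb were called, and the median was 0.72. Gzma, granzyme A, a serine protease of cytotoxic granules, went from 894, 598 and 533 on day 1 to 2500.4, 1528 and 1853 on day 7. The untreated array was the highest on both days, and the lowest day 7 array was above the highest of day 1. The difference was 1.52 ± 0.18, a 2.87-fold rise (adjusted p = 0.032). Gzmb, granzyme B, which activates caspases in the target cell, went from 657, 733 and 655 to 1345, 1292 and 1289. Within a day its 3 arrays were close together, and the difference was 0.93 ± 0.089 (adjusted p = 0.025); both of its probe sets were called. Faslg, Fas ligand, the death ligand of activated T cells, went from 254, 424 and 360.4 to 718, 719 and 652 (difference 1.00 ± 0.15, adjusted p = 0.042). Among the members that did not pass, Gzmm was at 0.66 ± 0.10 (adjusted p = 0.0504), the granule gene Nkg7 at 0.77 ± 0.13 (adjusted p = 0.056), the cathepsin inhibitor Cst7 at 0.77 ± 0.13 (adjusted p = 0.056) and Gzmk at 0.80 ± 0.18 (adjusted p = 0.093). Prf1, perforin, stood high on both days, 5473, 5942 and 5518 and 6362, 6426 and 5178, with overlapping groups and a difference of 0.079 ± 0.087 (adjusted p = 0.68).

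Some chemokine and lymphocyte receptor genes were called, which were put together here after the fit and are no list of their own. Among 20 measured genes of an acute inflammatory list 2 were called higher, but 3 were higher and 4 lower in all 3 pairs. That list's median was -0.22, and 0.011 in the treated pairs alone. A list of 14 measured chemokine receptor and adhesion genes had 0 calls in limma. An unadjusted p below 0.05 was found for 5 of them, against 2829 of all 14217 genes. Ccl4, a chemokine of activated T and natural killer cells, went from 985, 1077 and 1046 to 2104, 2177 and 2011, a difference of 1.01 ± 0.093 (adjusted p = 0.025), and the related Ccl3 had a difference of 0.75 ± 0.11 (adjusted p = 0.042). Xcl1, a chemokine that attracts dendritic cells, was at 0.70 ± 0.10 (adjusted p = 0.042), and was the 1 called gene of 20 on the list of calcineurin and NFAT dependent genes. Of 11 natural killer receptor genes 1 was called, Ly49s7, a stimulatory receptor of the Ly49 family (119, 155 and 159.8 to 313, 359 and 331, difference 1.13 ± 0.12, adjusted p = 0.025), and 7 were higher in all 3 pairs. Without the untreated day 1 array 0 of the 11 were called, and their median was 0.38 against 0.30 with all arrays. Ly49 genes are near copies of each other, as are the rat granzyme and mast cell protease genes, so which members these probe sets measure is uncertain. Klra5 of the same family (0.80), Cd7, a surface protein of T and natural killer cells (0.63), the T cell adaptor Sh2d2a (0.79) and the serpin Serpinb6b (0.67) were called as well. On day 3 the cytotoxic list stood near its day 1 level, with medians of day 3 minus day 1 of 0.0035, 0.081 and -0.12, and those of the natural killer receptor list were 0.068, -0.029 and -0.11. Gzma had day 3 signals of 621, 724 and 707, which overlapped those of day 1, whereas Gzmb, at 925, 1063 and 845, already stood above all 3 of its day 1 arrays. A difference in timing between the 2 groups of genes was not tested.

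**Figure D2:**
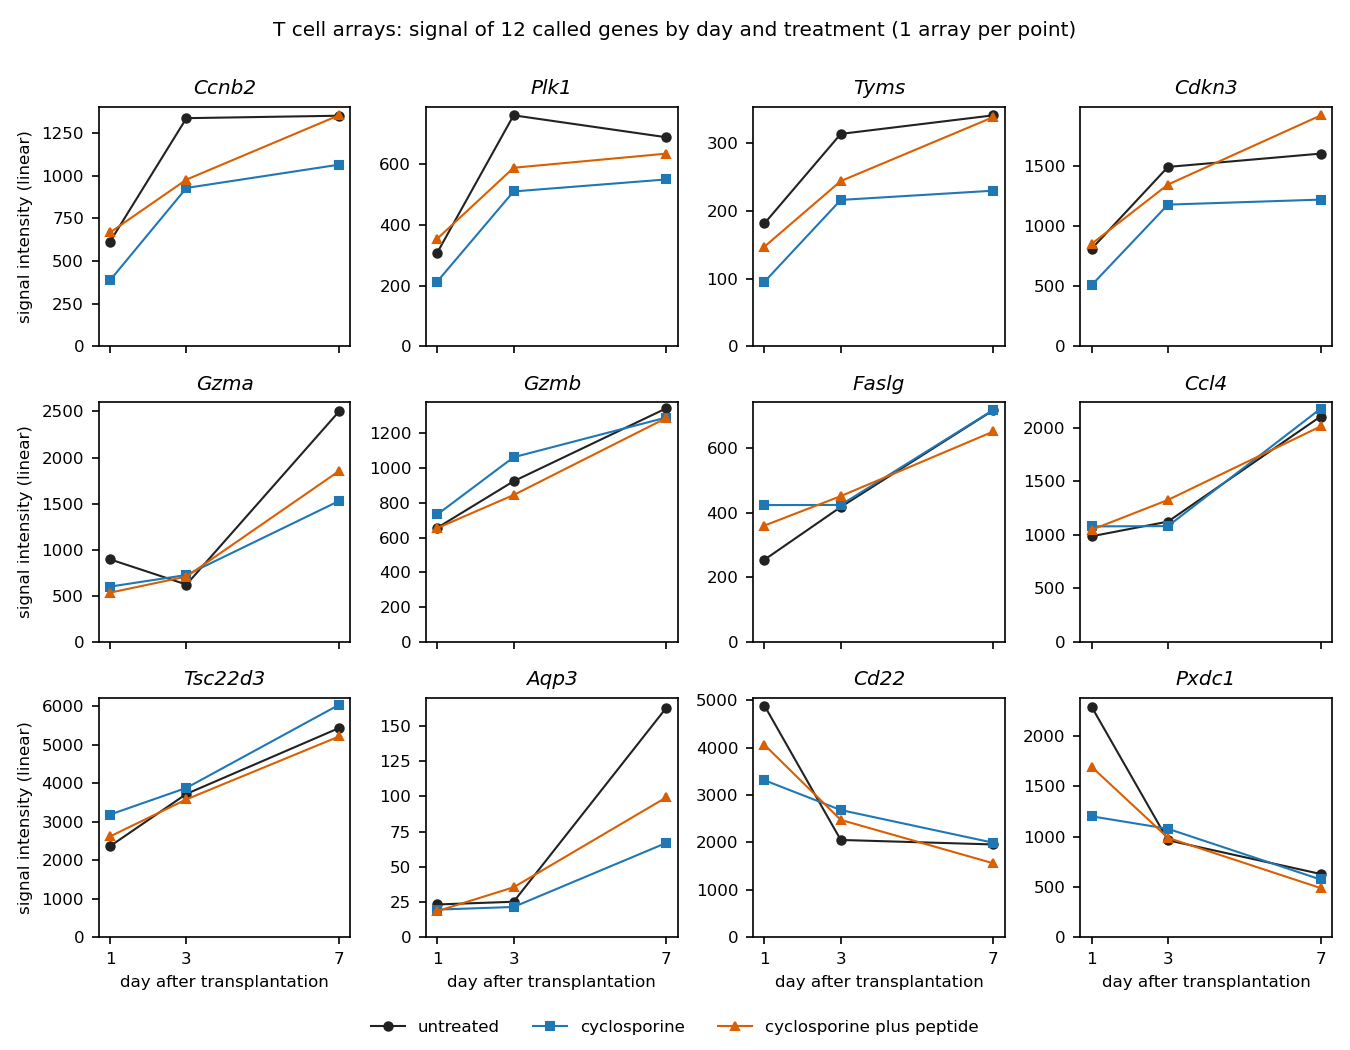
Signal intensity on a linear scale of 12 called genes on the 9 T cell arrays, by day after transplantation, with 1 array per point and a line for each treatment. Ccnb2, Plk1, Tyms and Cdkn3 are already above their day 1 level on day 3, Gzma leaves it between day 3 and day 7 in all 3 treatments, and Cd22 and Pxdc1 are lowest on day 7.

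The lowest adjusted p of all probe sets belonged to Tsc22d3, also called GILZ, a leucine zipper protein induced by glucocorticoids that dampens T cell activation. Its signals of 2362, 3184 and 2615 on day 1 became 5430.3, 6034 and 5211 on day 7, a difference of 1.03 ± 0.08 (adjusted p = 0.016), with 3719, 3875 and 3578 on day 3. The 3 arrays of each later day were above all of the day before it. Of 15 measured genes of a glucocorticoid response list 2 were called, Tsc22d3 and the transcription factor Klf9 (0.57 ± 0.079, adjusted p = 0.042), 8 were higher in all 3 pairs and none lower, with a median of 0.22. Without the untreated day 1 array Tsc22d3 kept its call and Klf9 did not. The list then had 2 calls and a median of 0.29. The kinase Sgk1 (0.52 ± 0.10, adjusted p = 0.074) and the immunophilin Fkbp5 (0.35 ± 0.13, adjusted p = 0.2) did not pass.

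Among the other called genes was Aqp3, a water and glycerol channel. It rose from 23.2, 19.5 and 18.5, among the low signals of these arrays, to 163, 67 and 99.3, a difference of 1.72 ± 0.23 (adjusted p = 0.042), and the untreated array of day 7 was the highest. Its day 1 signals lay near the constant of 16, and with a constant of 64 the difference was 1.00, below those of Gzma (1.46) and Ccnb2 (1.11) on that scale. Pdgfrl, a gene resembling the platelet-derived growth factor receptor, went from 78.8, 101 and 73.4 to 234, 203 and 359.6 (1.46 ± 0.21, adjusted p = 0.042). C19h16orf74 was at 1.13 ± 0.12 (adjusted p = 0.032) and Mcpt9, a mast cell protease gene, at 1.11 ± 0.15 (adjusted p = 0.042). Rfxank, a subunit of the factor that drives MHC class II genes, was at 1.09 ± 0.17 (adjusted p = 0.049), but with signals from 1.88 to 53.4, where the constant of 16 added before taking logs weighs most.

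Called genes that fell were fewer. Cd22, an inhibitory receptor of B cells, went from 4888, 3312 and 4059.9 on day 1 to 1956, 1992 and 1558 on day 7, so that every day 7 array was below every day 1 array. The difference was -1.14 ± 0.16, 2.2-fold lower (adjusted p = 0.042). It was the 1 called member of the 13 measured B cell genes, of which 12 were lower in all 3 pairs and 12 in both treated pairs. In 11 of them the day 1 and day 7 arrays did not overlap. The list's median was -0.85, with -1.49, -0.23 and -0.73 in the 3 pairs, so the cyclosporine pair had the smallest difference and the untreated pair the largest, and with no call it was -0.46 without the untreated day 1 array. Cr2, complement receptor 2 of mature B cells, went from 4028, 2950.4 and 3606 to 1302, 1252 and 749 (-1.70 ± 0.27, adjusted p = 0.052, not called). Ebf1, a transcription factor of the B lineage, was at -1.41 ± 0.35 (adjusted p = 0.11), and Ms4a1, which encodes CD20, at -0.86 ± 0.29 (adjusted p = 0.17). Cd79b, a signalling chain of the B cell receptor, went from 7138, 2843 and 3586 to 2009, 2766 and 2409.7, a large difference in the untreated pair (-1.82) and a small one in the cyclosporine pair (-0.039). Cd37, the 1 member that was not lower in all 3 pairs, was at 0.0083.

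Of the other called genes that fell, Pxdc1 went from 2293, 1203 and 1695 to 629, 573 and 489 (-1.55 ± 0.18, adjusted p = 0.032). Lamp3, a lysosomal membrane protein of mature dendritic cells, went from 338, 300.3 and 323 to 115, 116 and 91.3 (-1.45 ± 0.22, adjusted p = 0.048). In both genes the days did not overlap, and the cyclosporine array of day 1 was the lowest of its day. Chka, choline kinase alpha of phospholipid synthesis, was at -1.39 ± 0.20 (adjusted p = 0.042), the collagen Col20a1 at -1.28 ± 0.16 (adjusted p = 0.034), and the junction protein Esam at -1.07 ± 0.14 (adjusted p = 0.042). Smaller differences were called for Syvn1, a ubiquitin ligase of the endoplasmic reticulum (-0.59 ± 0.091, adjusted p = 0.048), and for the calcium and calmodulin dependent kinase Camk2d (-0.57 ± 0.079, adjusted p = 0.042). The uncharacterised LOC102555173 fell by 1.79 on the log2 scale (adjusted p = 0.032). Summed B cell signal moved with these results, as given above, and its part in the fall of genes outside the B cell list was not tested.

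**Figure D3:**
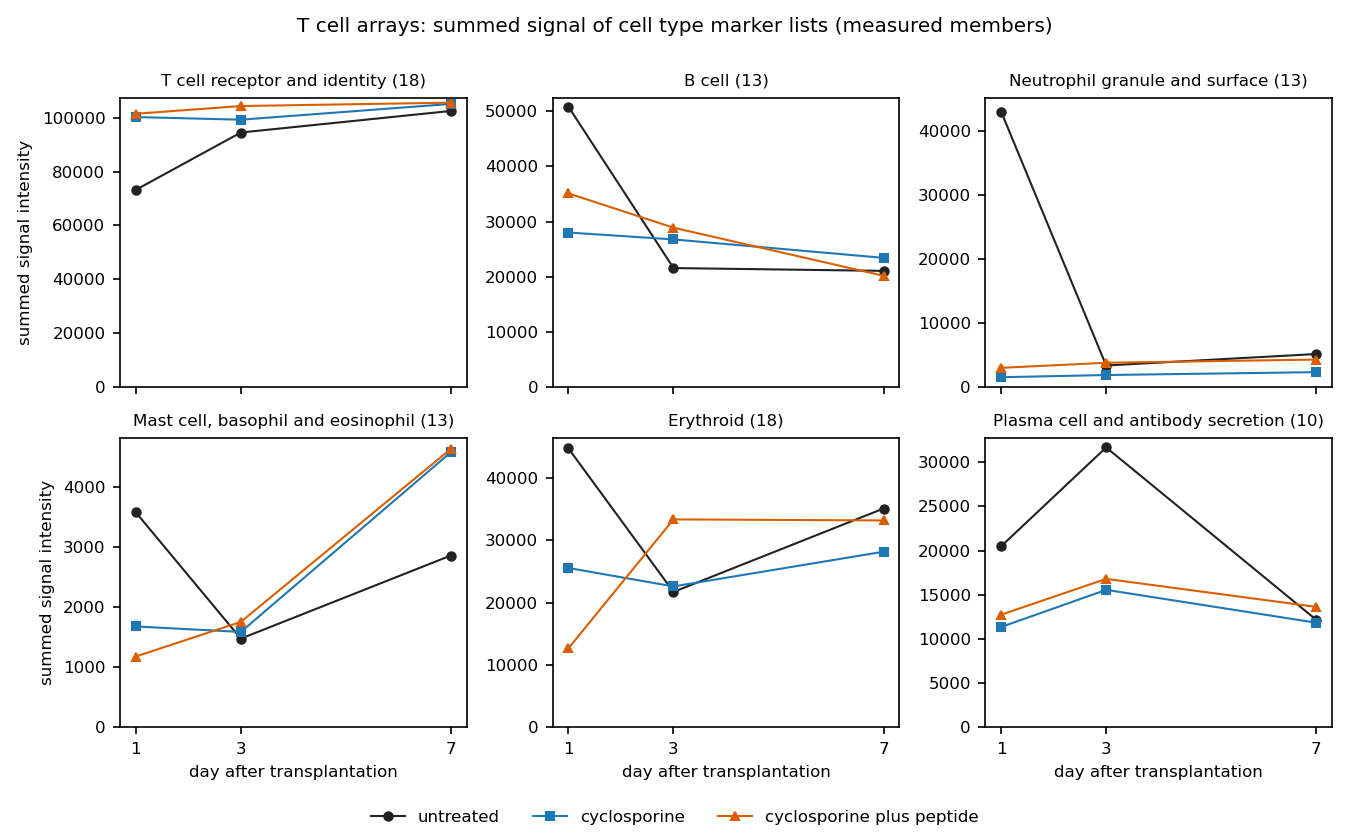
Summed signal intensity of the measured members of 6 cell type lists on the 9 T cell arrays, by day, with 1 array per point. The untreated day 1 array is highest for B cell and neutrophil genes and lowest for T cell genes, and the mast cell genes of both treated groups are highest on day 7.

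A list of T cell receptor and identity genes had no calls. Cd7 and the T cell adaptor Sh2d2a, called above, were not on it. Of 18 measured members of this T cell list 0 were called in limma. An unadjusted p below 0.05 was found for 7, against 2829 of all 14217 genes. In all 3 pairs 8 were higher and 0 lower. The median was 0.22, with 0.58, 0.051 and 0.11 in the 3 pairs, and 0.071 without the untreated day 1 array. Cd8a, a coreceptor of cytotoxic T cells, went from 4528, 7008 and 6968 to 7347, 7727 and 8146 (0.35 ± 0.11, adjusted p = 0.14), and Cd8b was at 0.65 ± 0.15 (adjusted p = 0.091). The coreceptor Cd4 went from 977, 799 and 652 to 809, 722 and 730.5 (-0.084 ± 0.10, adjusted p = 0.71). The signal of Cd8a and Cd8b was thus higher on day 7 in all 3 pairs but short of the threshold, and that of Cd4 overlapped between days.

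Genes that depend on calcineurin and NFAT, the pathway cyclosporine blocks, had 1 call of 20 (Xcl1), 10 higher and 2 lower in all 3 pairs, and a median of 0.28. Without the untreated day 1 array it had no call and a median of 0.18, and with weak signals filtered out the median was 0.137 over 14 genes. Il2, the T cell growth factor, had low signals of 57.5, 98.4 and 102 on day 1 and 125, 144 and 127 on day 7 (0.57 ± 0.18, adjusted p = 0.16). Ifng, interferon gamma, stood at 29.5, 166 and 175 and 178, 159 and 185, so the untreated array of day 1 was low and the other 5 were close together. Egr2, a transcription factor induced by T cell receptor signals, was at 0.51 ± 0.11 (adjusted p = 0.087) and the orphan receptor Nr4a3 at 0.60 ± 0.14 (adjusted p = 0.093). Genes of cholesterol synthesis had no call among 16 in limma. An unadjusted p below 0.05 was found for 12, against 2829 of all 14217 genes. Of the 16 genes 13 were higher in all 3 pairs, and in 12 the groups did not overlap. The median was 0.38, and 0.27 without the untreated day 1 array. Sqle, squalene epoxidase, went from 542, 533 and 556 to 749.9, 757 and 791 (0.48 ± 0.10, adjusted p = 0.085), and Dhcr7, the last enzyme of the pathway, was at 0.42 ± 0.082 (adjusted p = 0.075). 

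In the 2 treated pairs taken alone, where nothing was called, the largest higher differences shared by both were mostly those of mast cell genes. Mcpt1, a mast cell protease, went from 386 to 1973 in the cyclosporine pair and from 108 to 2028 in the peptide pair, and from 432 to 869 without treatment. Its difference over the treated pairs was 3.17 ± 0.41 (adjusted p = 0.11), and over all 3 pairs 2.44 ± 0.47 (adjusted p = 0.074). Cpa3, the mast cell carboxypeptidase, had differences of 0.49, 1.85 and 2.77 in the 3 pairs, and Mcpt10 of 0.56, 2.56 and 3.46. Mcpt3 (0.85, 1.88 and 3.06), Mcpt4 (0.12, 1.48 and 2.54) and Cma1, mast cell chymase (0.34, 2.17 and 3.42), had the same order, the peptide pair highest and the untreated pair lowest. Without the untreated day 1 array Cpa3 and Mcpt10 were called, at 2.29 (adjusted p = 0.044) and 2.90 (adjusted p = 0.044). Car1, a carbonic anhydrase of red cells, had 1.15, 1.83 and 3.79, and the kinase Nuak2 -0.26, 1.98 and 1.89. The mast cell, basophil and eosinophil list as a whole had medians of -0.16, 0.78 and 1.06, while the mast cell receptor gene Kit stayed between 54.2 and 72.9 on the 6 arrays. Red cell genes had their largest differences in the peptide pair: Ahsp, the alpha hemoglobin chaperone, stood at 2209.8, 403 and 124 on day 1 and 2733, 1109 and 2249 on day 7, and the erythroid list's medians were 0.13, 0.33 and 1.35. Whether these signals came from cells carried along with the T cells was not tested.

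On the lower side, the treated pairs shared their largest differences in Cr2 (-1.62, -1.23 and -2.24) and in genes of low signal. Rsph10b, Wfdc18, Nxnl1, Hmga2, Cyp46a1, Cpg1 and Slc24a1 had signals of at most 152 on each of the 6 arrays, and none passed in either fit.

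Genes of neutrophils set the untreated pair apart from the treated pairs, through the untreated day 1 array. The untreated group has 1 array per day and no spread of its own, so a fit of this difference assumes that its arrays vary like the others, and a single unusual array cannot be told apart from an effect of the treatment. With that assumption 46 probe sets passed (0.148%), all with the untreated pair below the treated pairs, and 38 genes (0.267%), and with no trend in the error model none passed (1959 had an unadjusted p below 0.05). S100a8, a subunit of the neutrophil protein calprotectin, had signals of 12964, 237 and 581 on day 1, 663, 297 and 879 on day 3 and 733, 403 and 855 on day 7. The untreated day 1 array was thus far above the other 8, and the pairs' differences were -4.12, 0.73 and 0.55. The untreated pair was below the treated pairs, with a log2 difference of -4.75 ± 0.24 (adjusted p = 0.0033). Its partner S100a9 went from 17774, 515 and 1264 to 1279, 884 and 1892, Csf3r, the receptor of granulocyte colony-stimulating factor, from 2842, 115 and 264 to 166, 140.4 and 215, and the neutrophil collagenase Mmp8 from 1949, 125 and 155 to 143, 137 and 172. Of 13 measured neutrophil genes 5 were called in this test, and the list's medians were -2.62, 0.37 and 0.54 in the 3 pairs. The chitinase-like Chi3l1, the peptidoglycan receptor Pglyrp1, the metalloreductase Steap4 and the stefin Stfa2l2 were called too, with Pglyrp1 going from 2319, 90.8 and 104 to 111, 102 and 121. The inflammatory genes Il1b (-2.11, 0.75 and 0.41) and Hp, haptoglobin (-3.47, 0.09 and -0.042), and the glucocorticoid-induced Anxa1 (-2.45, 0.36 and 0.30) followed the same order and were called.

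No probe set was called with the untreated pair above the treated pairs (limma), and 2010 had an unadjusted p below 0.05 in either direction. The largest such differences were in genes whose untreated day 1 signal was low, among them Ifng, given above, and the DNA methyltransferase Dnmt3b, which went from 88.1, 371 and 336 to 305, 311 and 313, a difference from the treated pairs of 1.79 ± 0.28 (adjusted p = 0.11). None of the 12 called mitosis genes and none of the cytotoxic list passed this test, which has 2 residual degrees of freedom. For Gzmb the untreated pair differed from the treated pairs by 0.14 ± 0.21, and for Ccnb2 by -0.094 ± 0.29.

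**Figure D4:**
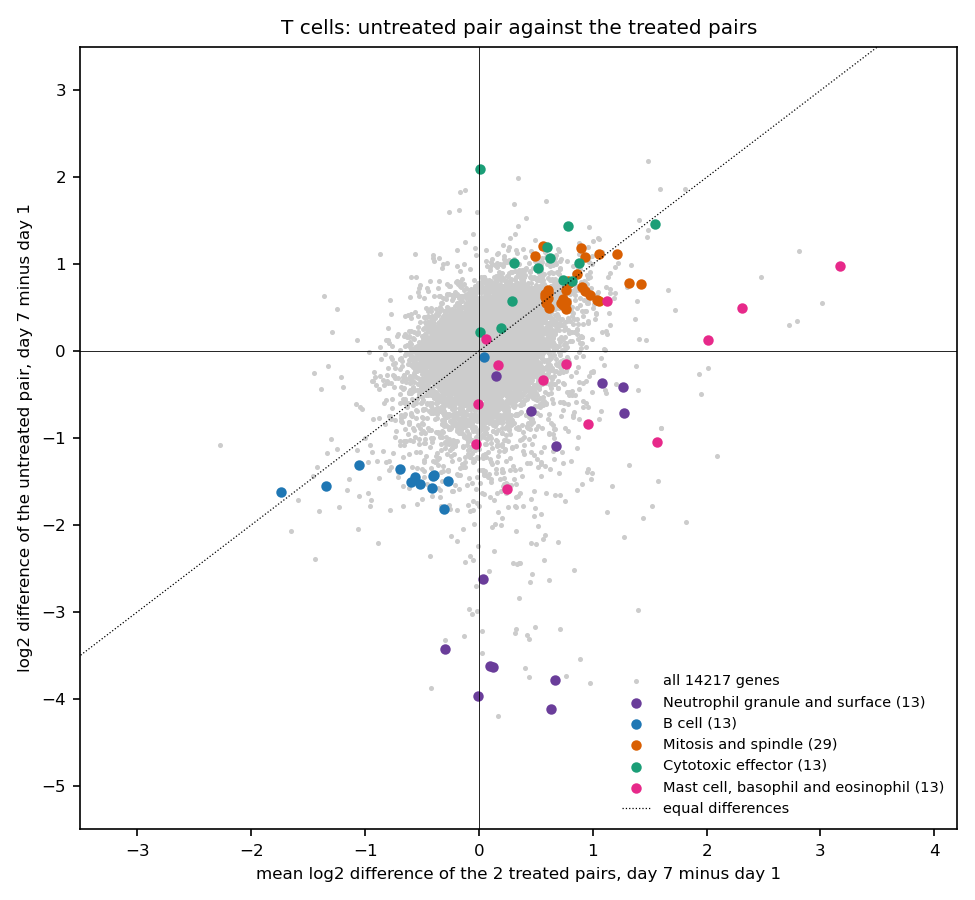
Log2 difference, day 7 minus day 1, of each gene in the untreated pair (vertical axis) against the mean of the 2 treated pairs (horizontal axis), for all 14217 genes in grey and 5 lists in colour. Mitosis and cytotoxic genes lie mostly above 0 on both axes and B cell genes below 0 mostly on both. The 13 neutrophil genes have a median of -2.62 on the untreated axis.

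The same days in the allograft hearts of the series gave a measure of how T cells and graft differed. In the heart 27.9% of genes were called higher on day 7 and 26.5% lower. Of the 56 genes called higher in T cells 43 were called higher in the heart too and 6 lower, and of the 9 called lower 3 were called lower in the heart and 3 higher. The change in T cells was below that in the heart for 19.5% of all genes and above it for 21.1%, by a test of the difference. Gzma in the heart went from 70.6, 69 and 53.3 to 2127, 1872 and 1814, and the T cell change minus the heart change was -3.09 ± 0.22 (adjusted p = 7.5e-07). In both tissues the day 7 arrays were above those of day 1, but the heart started from a lower signal. The mitosis list had a median of 1.80 in the heart, and 25 of its 29 genes had a T cell change below that of the heart. The same held for 12 of the 13 cytotoxic genes, whose median in the heart was 2.97, and for 17 of the 18 T cell genes, whose median there was 2.92.

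Tsc22d3 and Klf9 went the other way. Tsc22d3 in the heart went from 1948, 2026 and 1937 to 1188, 1394 and 1322, a fall in all 3 treatments, and its T cell change was above the heart change by 1.63 ± 0.14 (adjusted p = 2.9e-06). Klf9 had a heart difference of -0.79, and the T cell change was above it by 1.36 ± 0.094 (adjusted p = 6.6e-07). Pdk2, a kinase that restrains pyruvate entry into mitochondria, was called higher in T cells (0.92 ± 0.14, adjusted p = 0.045) and stood at -1.36 in the heart. Cd22 fell in T cells and was higher in the heart on day 7 (0.82), a T cell minus heart difference of -1.95 ± 0.32 (adjusted p = 0.00045).

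The largest differences between the tissues were in genes with large changes in the heart. Ubd, an interferon-induced ubiquitin-like modifier, went from 473, 476 and 413 to 803, 698 and 1043 in T cells and from 128, 214 and 96.7 to 11553, 12699 and 13644 in the heart. Ido1, a tryptophan-degrading enzyme, stayed between 17.5 and 38.8 on the 6 T cell arrays and had a heart difference of 5.36. Ciita, which switches on MHC class II genes, and Tnfrsf14, the herpesvirus entry mediator, had heart differences of 4.38 and 5.07 against T cell differences of -0.67 and -0.00032. Cd3e was flat in T cells, as given above, and rose by 4.94 in the heart. In the other direction stood genes that fell in the heart: Igf2, insulin-like growth factor 2 (-3.75 in the heart, 0.061 in T cells), the sulfotransferase Sult1a1 (-3.36, 0.41), the water channel Aqp1 (-2.39, 1.28), the sodium channel Scn7a (-3.69, -0.052) and the muscle enzyme Pgam2 (-2.68, 0.29).

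**Figure D5:**
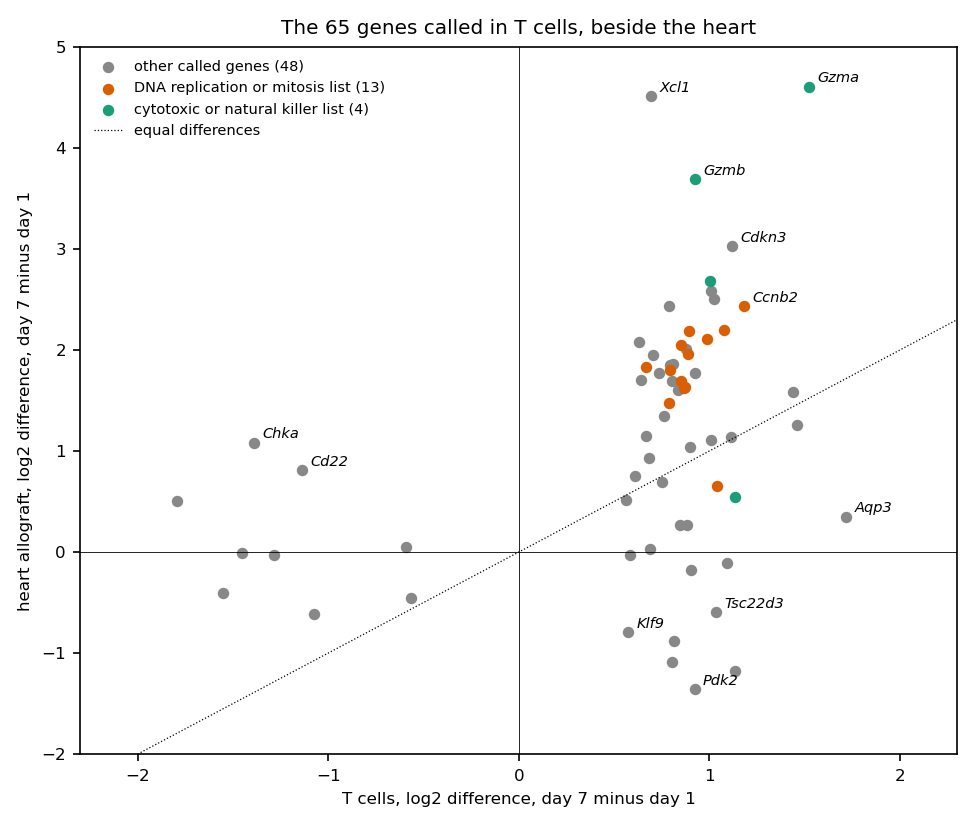
Log2 difference, day 7 minus day 1, of the 65 genes called in T cells (horizontal axis) beside the difference of the same gene in the heart allografts (vertical axis), with the line of equal differences dotted. Genes of the cell division and cytotoxic lists lie above 0 on both axes and mostly above the line, while Tsc22d3, Klf9 and Pdk2 lie below 0 in the heart.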

How the data were processed

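The authors deposited 1 table of signal intensities, per the labels from biotin-labelled cRNA hybridised to expression arrays, with 1 column for each of the 18 arrays (9 of T cells, 9 of hearts). How the intensity values were scaled is not given in the sources used here, and they can be negative (386 T cell values). Values x were turned into log2(max(x, 0) + 16) for the 31042 probe sets that are not controls. Of these, 20826 had 1 gene symbol in the platform annotation, 436 several and 9780 none, and 20758 were matched to RefSeq by gene identifier, which changed 0 symbols. A gene was represented by its probe set of highest mean in T cells.

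Differences were fitted with limma 3.58.1 in R 4.3.3 (lmFit and eBayes with trend) to the 9 T cell arrays, with treatment as a block, day 3 kept for the error (4 residual degrees of freedom) and Benjamini-Hochberg adjustment over all probe sets. A fit with terms for untreated by day 3 and untreated by day 7 (2 residual degrees of freedom) compared the untreated pair with the treated pairs. Another fit, of all 18 arrays, compared T cells with hearts. Errors after ± are standard errors. The scripts were tested on simulated data. The labels tie no array to an animal, so p-values measure the spread between these arrays, which may be technical in part, and the number of arrays limits the precision.

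The comparison and the 40 gene lists (581 measured genes) were chosen with earlier results of these data known. Genes were named by rule: the 12 largest differences per direction among called genes, the 8 largest in the treated pairs and in the untreated against the treated pairs, the 5 largest between tissues, and up to 5 members of a list by size of difference. The other genes named were chosen after their values were seen, to show a group's members. Alternatives were other constants (4 and 64), quantile normalization, median centring, a filter on low values, other error models, no treatment block, and fits without each treatment or without day 3; leaving out the untreated day 1 array and the alternatives of the treated pairs alone were added after the data were seen.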

Additional observations from a re-analysis of the deposited data

Results flagged for a closer look

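An interaction term in limma set the untreated pair apart from the treated pairs in 46 probe sets. It rests on 1 untreated array per day, taken to vary like the others, and gave 0 calls with no trend in the error model. The 8 largest differences, untreated minus treated, were -4.80 in Chi3l1, -4.75 in S100a8, -4.45 in S100a9, -4.37 in Pglyrp1, -4.18 in Steap4, -4.05 in Stfa2l2, -3.96 in Csf3r and -3.75 in Mmp8. In each of them the untreated day 1 array had the highest signal of the 9 T cell arrays.

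The day effect differed between T cells and hearts in 10859 probe sets, again by an interaction term in limma. The largest T cell minus heart differences were -5.48 in Ubd, -5.37 in Ido1, -5.07 in Tnfrsf14, -5.05 in Ciita and -4.88 in Cd3e on one side, and 3.81 in Igf2, 3.77 in Sult1a1, 3.67 in Aqp1, 3.64 in Scn7a and 2.97 in Pgam2 on the other.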

How the results depend on the processing

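Against the 100 probe sets called with all T cell arrays, 0 were called without the untreated, without the cyclosporine or without the cyclosporine plus peptide arrays, 0 with days 1 and 7 only and 0 with no trend in the error model. There were 20 calls without the treatment block, 19 without the untreated day 1 array (an alternative added after the data were seen), 208 with median centring and 181 with the robust error model. The other alternatives gave 92 to 112. The treated pairs alone gave 0 calls, and 22 with median centring. The 46 calls of the untreated against the treated pairs became 95 with the constant 64, 100 with median centring, 78 with the robust error model and 0 with no trend, and were 35 to 43 otherwise. The calls between tissues stayed between 8459 and 11223. The cause of these moves was not tested; fits that leave out a treatment or a day have fewer arrays. Of 37 genes named by the rules for the day effect, none changed direction under these alternatives. The rules took genes with the same sign in every pair or in both treated pairs, so this was largely fixed by their choice. Only 21 of the 37 were called. Of these 21, 17 lost their call without the untreated day 1 array. All 21 lost it without any 1 treatment, with days 1 and 7 only and with no trend. Of 40 list medians 14 changed sign under at least 1 alternative. Without the untreated arrays the neutrophil list went from -0.81 to 0.45, the macrophage list from -0.15 to 0.061, the plasma cell list from -0.12 to 0.14 and the acute inflammatory list from -0.22 to 0.011. Without the untreated day 1 array alone the neutrophil list went to 0.39, the macrophage list to 0.093 and the MHC class II list from -0.25 to 0.038. The apoptosis regulator list went from 0.064 to -0.014 without the cyclosporine plus peptide arrays, and the other 8 changed sign from medians below 0.1 in size. The pairing by treatment is the block of the fit, so the 20 calls without it are those of the unpaired analysis. Weak signals, near the constant of 16, limit what can be said of genes such as Rfxank and Aqp3 on day 1.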

Other observations

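Genes induced by interferon had smaller differences in the T cells than in the graft. The 21 measured genes of a type I interferon list had a median day 7 minus day 1 difference of -0.13 in T cells and 1.24 in the heart, and the T cell change was below the heart change in 17 of them. For the 17 genes of an interferon gamma list the medians were 0.18 and 2.68, with 15 below the heart change. No gene of either list was called in T cells in limma. An unadjusted p below 0.05 was found for 1 of the 21 and 5 of the 17, against 2829 of all 14217 genes. On day 3 minus day 1 the type I list had medians of 0.36, 0.43 and 0.065 in the untreated, cyclosporine and cyclosporine plus peptide groups, against 0.048, -0.0043 and 0.052 for all genes, so the last was at the level of all genes.

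Genes of plasma cells and antibody secretion were highest on day 3 without treatment. Their summed signal over 10 genes was 20483, 11338 and 12731 on day 1, 31684, 15548 and 16793 on day 3 and 12154, 11824 and 13616 on day 7 in the untreated, cyclosporine and cyclosporine plus peptide groups, so the untreated group was the highest on days 1 and 3. MHC class II presentation genes had medians of -0.79, 0.14 and -0.20 on day 7 minus day 1, and the untreated day 1 array had the highest summed signal of them (70930.0, 40988 and 47229 on day 1). With 1 array each, these differences between treatments have no replicate.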
